A study of Mus musculus with 8 samples.

Results

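Among the cells sorted as monocytes and macrophages from the mouse colonic lamina propria, 120 of 3213 kept cells carried transcripts of T cells or of antibody-secreting B lineage cells. They were chosen on raw UMIs, the molecules counted per gene and cell after barcodes are collapsed. A cell with at least 2 UMIs of Cd3d, Cd3e and Cd3g together was called T-like, and a cell with at least 2 UMIs of Mzb1 and Cd79a together was called B and plasma-like. Cells with a UMI of Xcr1 or Clec9a, or with 60 or more UMIs of C1qa, C1qb and C1qc per 10000, were not taken. This gave 61 T-like cells, 58 B and plasma-like cells and 1 cell that met both limits. The levels of these rule genes are therefore a description and were not tested.

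All 8 mice were female CD98hcΔCX3CR1 littermates, 6 to 12 weeks old, in which tamoxifen lets a Cre driven by the Cx3cr1 promoter excise exon 3 of Cd98hc (Slc3a2). The 4 control mice received corn oil and the 4 cKO mice tamoxifen at 20 mg per ml in corn oil, 100 µl on each of 5 days, and cells were taken on day 7. CD11b+ cells expressing CCR2 or CD64 were sorted and each mouse filled 1 well of the same 10x cartridge. Tamoxifen itself was given to cKO mice only, so the drug and the deletion cannot be told apart. Control mice are numbered 1 to 4 and cKO mice 5 to 8. The kept cells numbered 724, 505, 85 and 549 in the control mice and 83, 349, 484 and 434 in the cKO mice, so mice 3 and 5 were much smaller than the rest. A total of 25 barcodes occurred in more than 1 well, and 1 of the 120 lymphoid cells carried such a barcode.

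Lymphocytes of the gut wall divide into T cells, which recognise antigen through a receptor bound to the CD3 chains, and B cells, which end as plasma cells that secrete IgA joined by the J chain. Regulatory T cells, defined by the transcription factor Foxp3, are abundant in the colon and restrain inflammation. Plasma cells give much of their transcription to secretion, under the factor Xbp1, and home to the gut through the receptor CCR10. CD98hc, the product of Slc3a2, is the heavy chain that carries amino acid transporters such as Slc7a5 to the cell surface.

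The T-like cells carried the T cell program and not that of myeloid cells. Besides the CD3 genes, the genes with the highest ratio to the other kept cells included Gzmb, the protease granzyme B, with 1950 CPM (UMIs scaled to a common total per sum) against 2.78 CPM in the other cells, Cxcr6, a homing receptor, with 1430 CPM, Ctla4, an inhibitory receptor, with 1273 CPM, Tnfrsf4 (OX40) with 850 CPM and Icos with 769 CPM. Of the genes the rule did not use, Lck, the kinase that acts next to CD3, was found in 43 of 61 T-like cells and in 0 of 58 B and plasma-like cells, where 3 counts would be 5.17% of cells with a UMI (counting error only, and no limit on cells that express it). Cd247, the zeta chain of the receptor, was found in 32 of 61. Of the 13 T cell genes present in the table, which include the 3 CD3 genes of the rule, 9 had no UMI in B and plasma-like cells. Cd28, however, was found in 44 of 58 B and plasma-like cells (202 CPM) and in 35 of 61 T-like cells (471 CPM). Ctla4 was found in 26 of 58 B and plasma-like cells, at 121 CPM against 5.03 CPM in the other kept cells. In the T-like cells 12 of the 13 genes had a UMI, and the absent one was Cd8a. The other kept cells also had a UMI of 12 of the 13, so this count does not separate the classes. The summed level of the list, CD3 genes included, was 6056 CPM in T-like and 29.2 CPM in the other kept cells. T cell receptor constant genes are not analysed here. Of 14 monocyte and macrophage genes, 3 (Csf1r, F13a1 and Itgam) had no UMI, and the summed level of the list was between 700.3 and 1540 CPM in the control mice and between 775 and 1170 CPM in the cKO mice, against 20454 CPM in the other cells.

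Regulatory T cell genes were found in part of the T-like cells. Foxp3 was found in 23 of 61 T-like cells (37.7%, 95% Wilson interval 26.6 to 50.3), in 0 of 58 B and plasma-like cells and in 2 of 3093 other cells, at median depths of 2550, 7031.5 and 4985 UMIs per cell. Cd4 was found in 26 T-like cells, Cd8b1 in 2 and Cd8a in 0. By mouse, Foxp3 cells numbered 5 of 10, 3 of 13, 0 of 1 and 7 of 12 in control mice 1 to 4, and 2 of 5, 3 of 7 and 3 of 13 in cKO mice 6 to 8. Every mouse with more than 1 T-like cell had both cells with and cells without a Foxp3 UMI. Gzmb was found in 16 of the 23 cells with a Foxp3 UMI and in 15 of the 38 cells without. Il10, an inhibitory cytokine, was found in 12 of the 23 and 10 of the 38, and 9 cells carried Foxp3, Gzmb and Il10 together. Ctla4 stood at 1773 CPM with Foxp3 and 972 CPM without, and Tnfrsf18 (GITR) at 1153 and 321 CPM. Of the other listed regulatory T cell genes, Ikzf2 stood at 274 and 165 CPM. Il2ra went the other way, at 72.1 CPM with Foxp3 (4 of 23 cells) and 148 CPM without (8 of 38 cells). Ifng, the Th1 cytokine, was found in 6 cells, all without a Foxp3 UMI, whereas Il17a was found in 3 cells of each kind. Gata3 and Tbx21, factors that direct other helper lineages, were found in 14 and 4 T-like cells. Gata3 was found in 6 of the 23 cells with a Foxp3 UMI and 8 of the 38 without, and Tbx21 in 1 and 3. Gata3 was not particular to T-like cells, with 18 of 58 B and plasma-like and 426 of 3093 other cells. The counts in T-like cells are of cells with at least 1 UMI at a median of 2550 UMIs per cell, so a cell without a UMI may still express the gene.

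The B and plasma-like cells carried the genes of plasma cells and, at lower levels, some of B cells. Jchain, the J chain of secreted IgA, stood at 222669 CPM, and in the single cell it took a median of 24.0% of all UMIs, with quartiles of 18.9 and 28.3%. In 4 of the 58 cells it took less than 10%. Ccr10 (634 CPM against 0.592 CPM in the other cells), Derl3 (587 against 3.79 CPM), which removes misfolded proteins from the endoplasmic reticulum, Tnfrsf17 (466 against 1.66 CPM), the plasma cell survival receptor BCMA, Eaf2 (460 against 1.72 CPM), Txndc5 (1729 against 28.8 CPM), a protein disulfide isomerase, and Sdc1 (675 against 13.6 CPM), the surface protein CD138, were all found in at least 45 of 58 cells. All 10 plasma cell genes present in the table, which include the rule gene Mzb1, had UMIs. The same held for all 10 in the other kept cells and for 8 in T-like cells, so this count does not separate the classes. Their summed level was 232484 CPM, against 781 CPM in the other kept cells and 585 CPM in T-like cells. Of the genes of mature B cells, Ms4a1 (CD20) had 4 UMIs and Cd22 none, whereas Cd79b, the partner of Cd79a in the B cell receptor, was found in 53 of 58 cells at 348 CPM, against 14.1 CPM in the other cells. Ebf1, a factor of the B lineage, was found in 7 cells. Immunoglobulin genes are not analysed here. Of plasmacytoid dendritic cell genes, Siglech and Spib had no UMI, whereas Bst2 (1360 CPM) and Ly6d (1119 CPM) were high. A UMI of Jchain was also found in 32 of 61 T-like cells (52.5%) and 1710 of 3093 other cells (55.3%), at 271 and 479 CPM, and its source was not tested. Mast cell and basophil genes had no UMI in either lymphoid class.

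**Figure D1:**
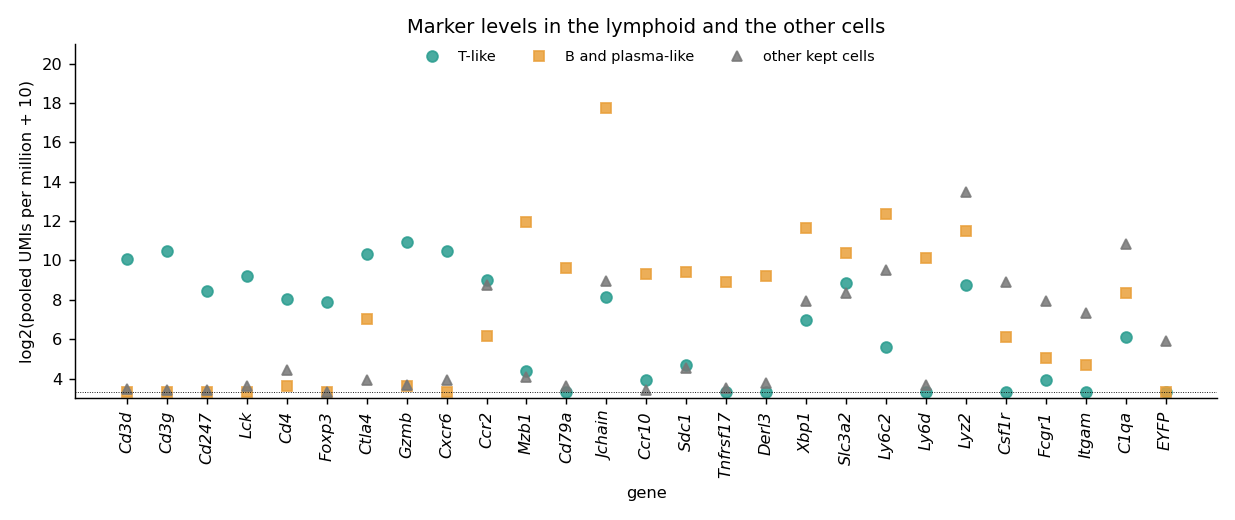
Pooled level of 27 genes in the 61 T-like, 58 B and plasma-like and 3093 other kept cells, as log2(CPM + 10), with a dotted line at a level of 0. T cell genes stand highest in the T-like cells and plasma cell genes in the B and plasma-like cells, while EYFP is at 0 in both.

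Cells just inside and just outside the limits differed in genes that the rule did not use, given here as a description. Just inside them were 6 T-like cells with 2 CD3 UMIs, all 6 with a UMI of at least 1 of 7 further T cell genes and a median of 6 such UMIs. Just outside were 20 cells with 1 CD3 UMI, of which 4 had such a UMI. For B and plasma-like cells, 2 cells had 2 UMIs of Mzb1 and Cd79a, and they held a median of 225 UMIs of 6 further plasma cell genes, against a median of 1 in the 30 cells with 1 UMI. The C1q limit kept out 2 cells on each side, and the Xcr1 and Clec9a limit kept out 1 and 4. Scrublet called 0 T-like and 3 B and plasma-like cells doublets, and these 3 are all the B and plasma-like cells of cKO mouse 5. It also called 21 of the 80 other cells of mouse 5. The next highest share among the other cells was 5 of 84, in control mouse 3. Whether the calls in mouse 5 are true doublets was not tested. Depth differed between the classes, from a median of 2550 UMIs in T-like to 7031.5 UMIs in B and plasma-like cells.

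The lymphoid cells were a small and variable part of each sort, and their share did not differ between the groups beyond the spread between mice. T-like cells made up 1.38, 2.57, 1.18 and 2.19% of the kept cells in the control mice and 0, 1.43, 1.45 and 3.0% in the cKO mice. Control mice averaged 1.83% ± 0.661 (SD, n = 4) and cKO mice 1.47% ± 1.22 (SD, n = 4), and the -0.361 percentage points between them did not pass the test (exact two-sided permutation test over 70 arrangements, p = 0.657, adjusted over 3 percentages p = 0.657). In mouse 5 none of 83 cells was T-like, where 3 counts would be 3.61% and the upper bound of the 95% Wilson interval is 4.42%, and without mouse 5 the difference turned to 0.129 percentage points. B and plasma-like cells made up 1.66, 1.19, 0 and 2.55% in control and 3.61, 3.15, 1.03 and 1.61% in cKO mice. The 4 control mice averaged 1.35% ± 1.06 (SD) and the 4 cKO mice 2.35% ± 1.23 (SD), or 1.0 percentage point more (same exact permutation test, p = 0.286, adjusted p = 0.429). With Scrublet doublets left out, which removes the 3 cells of mouse 5, this difference was 0.144 percentage points (exact permutation test, p = 0.914). B and plasma-like cells as a share of both lymphoid classes were 54.5, 31.6, 0 and 53.8% in control and 100, 68.8, 41.7 and 35% in cKO mice, and this difference of 26.4 percentage points did not pass either (exact permutation test, p = 0.257, adjusted p = 0.429) and was 13.5 percentage points without the doublet calls. The smallest p the design allows is 0.0286, and the groups overlapped in all 3 measures. Mice 3 and 5 held only 1 and 3 lymphoid cells.

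**Figure D2:**
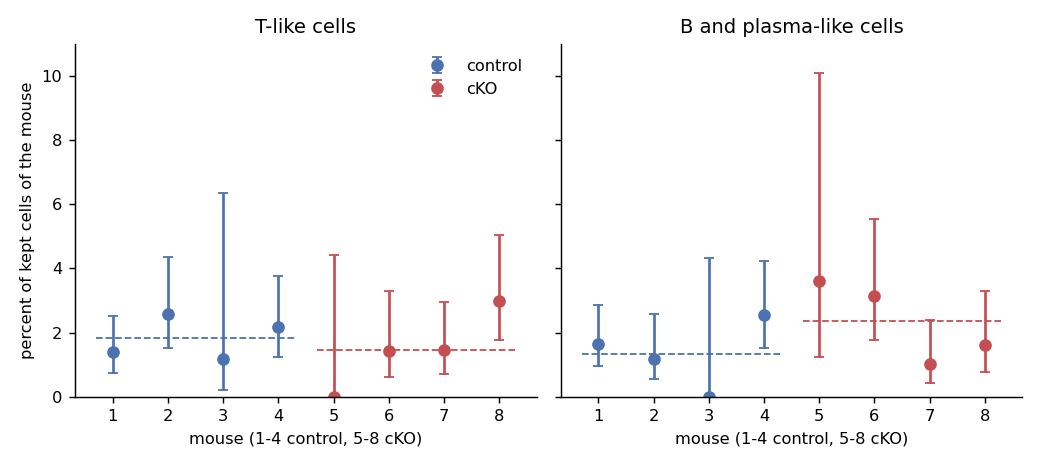
Percent of the kept cells of each mouse that were T-like (left) or B and plasma-like (right), with 95% Wilson intervals (counting error only) and the group mean as a dashed line. Control and cKO mice overlap in both panels, and the widest intervals are those of mice 3 and 5, with 85 and 83 kept cells.

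Whether the lymphoid cells carried the markers of the sort was asked within each mouse, against its other kept cells, in the 6 mice with at least 5 cells of a class (mice 1, 2, 4, 6, 7 and 8). Fcgr1, which encodes CD64, and Itgam, which encodes CD11b, were lower in both classes in 6 of 6 mice. On the log2(CPM + 10) scale Itgam was lower by 4.04 ± 0.374 in T-like cells (difference of -4.04, SD, n = 6 mice, exact sign-flip test, p = 0.0313, the smallest it can give, adjusted over 16 tests p = 0.0417), and by the same test Fcgr1 differed by -4.30 ± 1.11. The differences in B and plasma-like cells were -3.08 ± 1.24 for Itgam and -3.44 ± 1.37 for Fcgr1, each with the same exact p. The sizes rest on the pseudocount. With 1 and 100 CPM in place of 10 CPM, the difference in T-like cells was -7.27 and -1.35 for Itgam and -7.07 and -1.71 for Fcgr1, again lower in 6 of 6 mice. The C1q limit acts on the lymphoid cells and not on the cells they are compared with, and these differences kept their sign and side of the threshold without it. Itgam had 0 UMIs in 61 T-like cells and 7 UMIs in 58 B and plasma-like cells.

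Ccr2, the chemokine receptor that was a further marker of the sort, split the classes. T-like cells had it in 39 of 61 cells, at 498 CPM against 429 CPM in the other cells, and within mice the difference was 0.09 ± 0.469 on the log2 scale (exact sign-flip test, p = 0.719, 3 of 6 mice higher). B and plasma-like cells had it in 12 of 58 cells, at 62.7 CPM, lower than the other cells in 6 of 6 mice (difference of -3.22 ± 1.01, exact p = 0.0313, adjusted p = 0.0417). Ly6c2, a monocyte gene, was the reverse. It was higher in B and plasma-like than in other cells in 6 of 6 mice (2.74 ± 1.37) and lower in T-like cells in 6 of 6 (-4.02 ± 1.76), each with the exact p of 0.0313. EYFP, the reporter of the Cx3cr1 promoter, had no UMI in either class, against 49.2 CPM in the other cells. At a floor of 3 UMIs over the class it was at least 3.03-fold lower in T-like and at least 7.07-fold lower in B and plasma-like cells. Cx3cr1 had 0 UMIs in T-like and 1 in B and plasma-like cells and was low everywhere (5.86 CPM in the other cells).

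Slc3a2, the deleted gene, was found in 55 of 58 B and plasma-like cells and 41 of 61 T-like cells. Its levels in B and plasma-like cells were 1319, 794 and 1312 CPM in control mice 1, 2 and 4 and 1735, 1086 and 1637 CPM in cKO mice 6, 7 and 8, and the groups overlapped. In T-like cells the values were 236, 342 and 584 CPM in control and 516, 789 and 502 CPM in cKO mice. In the other cells of the same mice they were 338, 253 and 468 CPM against 284, 305 and 266 CPM. Within mice Slc3a2 was higher in B and plasma-like than in other cells in 6 of 6 mice, by 1.99 ± 0.476 on the log2 scale (exact sign-flip test, p = 0.0313, adjusted p = 0.0417), and in T-like cells in 5 of 6, by 0.55 ± 0.632 (exact p = 0.125). Between groups it did not pass the test in either class, with log2 fold changes of 0.47 (SE 0.31, edgeR adjusted p = 0.959) and 0.62 (SE 0.41, adjusted p = 0.873). The 3′ counts do not read the excised exon, so they do not check the deletion. Slc7a5, the light chain partner, had 0 UMIs in T-like and 5 in B and plasma-like cells.

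Which genes differed between cKO and control mice was tested on UMIs summed per mouse and class with edgeR's quasi-likelihood test and Benjamini-Hochberg adjustment across the tested genes (threshold 0.05). The sums with at least 5 cells came from control mice 1, 2 and 4 and cKO mice 6, 7 and 8, so n is 3 against 3, and mice 3 and 5 entered no fit. The B and plasma-like sums held 59189 to 83815 UMIs in control and 43266 to 81267 UMIs in cKO mice.

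In B and plasma-like cells, 6 genes rose in cKO mice and none fell, out of 2884 tested (0.208% of all genes tested). They were Ly6a (Sca-1), Ly6d, Ly6c1 and Ly6c2, which encode small membrane-anchored proteins of the Ly6 family, Ifi27l2a, an interferon-induced gene, and B2m, the light chain of MHC class I. Ly6a stood at 904, 524 and 931 CPM in control mice 1, 2 and 4 and at 6669, 6194 and 5231 CPM in cKO mice 6, 7 and 8. Every cKO mouse was far above every control mouse, and the log2 fold change was 3.01 (SE 0.32, edgeR adjusted p = 3.07e-08). Ifi27l2a stood at 428, 422 and 597 CPM against 2215, 2103 and 5231 CPM, a log2 fold change of 2.79 (SE 0.46, edgeR adjusted p = 0.000618). The groups were apart here too, with mouse 8 the highest.

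Ly6d, which in the B lineage marks early cells and here was also found in plasma-like cells, stood at 696, 541 and 489 CPM against 1575, 2866 and 1349 CPM (log2 fold change 1.84, SE 0.33, edgeR adjusted p = 0.00251). Ly6c2 stood at 1246, 4055 and 1122 CPM against 8048, 4137 and 7657 CPM (1.81, SE 0.35, edgeR adjusted p = 0.00422). Control mouse 2 lay just below cKO mouse 7. Ly6c1 stood at 110, 304 and 107 CPM against 566, 578 and 652 CPM (1.96, SE 0.40, edgeR adjusted p = 0.0122). B2m stood at 7427, 10357 and 8960 CPM against 18704, 25933 and 17420 CPM (1.33, SE 0.29, edgeR adjusted p = 0.0246). No cKO mouse fell below a control mouse in any of the 6 genes. Over all genes tested, all cKO sums lay above all control sums for 4.13% and below for 8.32%.

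Mouse 5 had 3 plasma-like cells, too few for the fit and all called doublets, so its values are given as a description and lend the calls no support. Scrublet also called 21 of the 80 other cells of this mouse, and whether its calls there are true doublets was not tested. Their sum held 33883 CPM of the 14 monocyte and macrophage genes, a list that includes Ly6c2, and most of this was Ly6c2. For the 12 genes of the list other than Ly6c2 and Ccr2, these cells had 12.3 to 29.5 UMIs per 10000. The median of the class was 19.8. The sum of mouse 5 had 4702 CPM of Ly6a, 31306 CPM of Ly6c2, 11659 CPM of Ly6c1, 17714 CPM of B2m and 3350 CPM of Ifi27l2a, all above the 3 fitted control mice. Its Ly6d of 709 CPM was barely above the 696 CPM of control mouse 1. With sums from at least 3 cells, which adds these doublet calls of mouse 5, 13 genes were called, and B2m was not among them (adjusted p = 0.0640).

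In single plasma-like cells the higher level was seen in every cKO cell for Ly6a, and less uniformly for the other genes. All 26 cells from cKO mice, and all 23 without the doublet calls of mouse 5, had at least 4 Ly6a UMIs, against 10 of 32 cells from control mice, of which 20 had any. Per 10000 UMIs the control cells had a median of 1.66 and a maximum of 49.8 and the cKO cells a minimum of 7.79 and a median of 48.1 (49.9 without the doublet calls). Of the control cells, 25 of 32 lay below the lowest cKO cell. For Ly6c2 the medians were 1.70 and 52.0 per 10000, but control cells reached 137, and 25 of the 26 cKO cells had any. B2m was found in every cell of both groups, with medians of 84.7 and 167 per 10000, and all 26 cKO cells exceeded the control median. Cells of 1 mouse share their source, so these counts describe the cells and are no test.

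**Figure D3:**
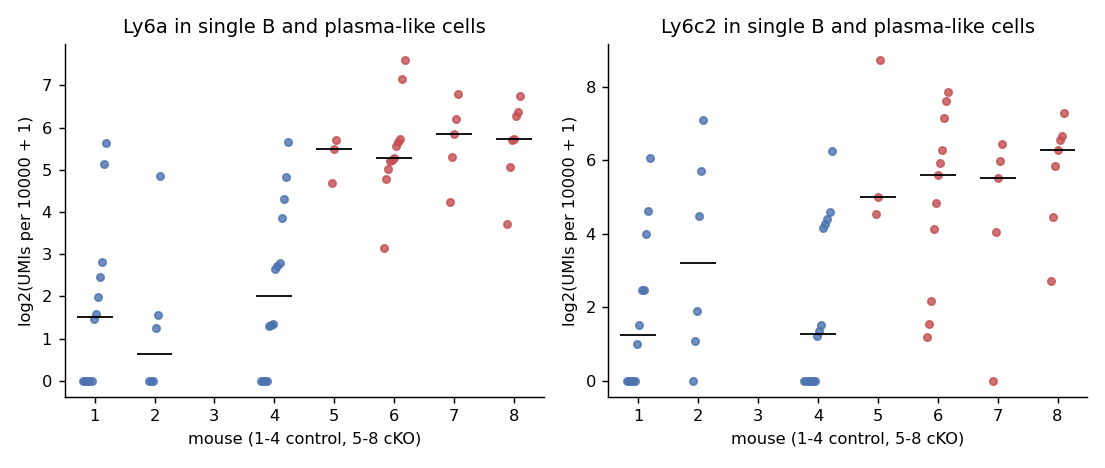
Ly6a (left) and Ly6c2 (right) in each B and plasma-like cell as log2 of UMIs per 10000 plus 1, by mouse, with the median of the mouse as a black line; mouse 3 had no such cell. For Ly6a all 26 cKO cells lie above 25 of the 32 control cells, and for Ly6c2 the cells of the groups overlap more widely.

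The calls differ in how firmly they stand. Ly6a was called under every alternative and without any of the 6 mice. Ly6d was called without any of the 6 mice. B2m kept its call only without cKO mouse 8, and lost it without control mouse 1 (edgeR adjusted p = 0.277), control mouse 2 (0.101), control mouse 4 (0.0696), cKO mouse 6 (0.122) or cKO mouse 7 (0.0863), and with the class fitted alone (0.0634). Ly6c2 lost its call without control mouse 1 (adjusted p = 0.119), control mouse 4 (0.0850), cKO mouse 6 (0.0847) or cKO mouse 8 (0.0690), by DESeq2 (0.115) and with the class fitted alone (0.113), and Ly6c1 without the same 4 mice (0.129, 0.0850, 0.0534 and 0.102) and by DESeq2 (0.113). Ifi27l2a lost it without cKO mouse 8 (0.0563). With at least 10 cells per sum, cKO mouse 6 alone was set against control mice 1 and 4, and this lone sample was assumed to vary like the other sums of the joint fit. Ly6a and Ly6c2 were then called and Ifi27l2a (0.0695), Ly6d (0.265) and B2m (0.266) were not, which does not rank the genes. The number of calls was 3 without control mouse 4 and 3 without cKO mouse 8. Ly6a, Ly6c1 and Ly6c2 are related genes, and reads that match more than 1 of them could have been split or dropped by the authors' counting, so their separate values are uncertain.

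**Figure D4:**
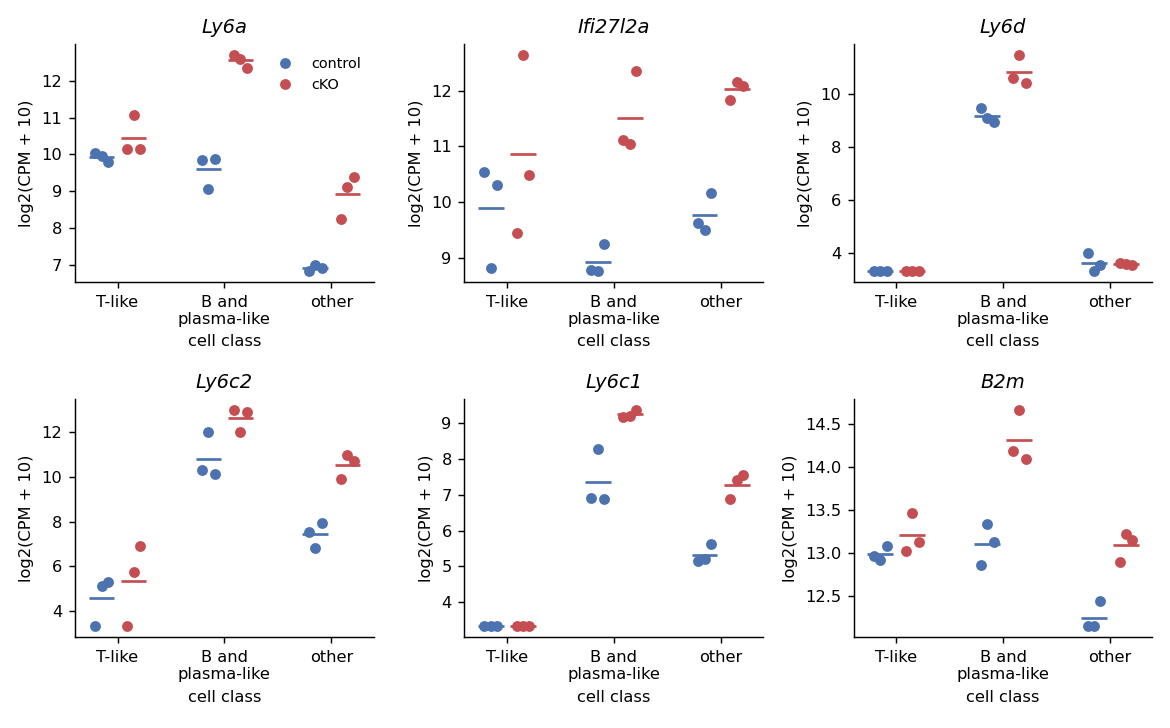
The 6 genes that rose in B and plasma-like cells, as log2(CPM + 10) per mouse in T-like, B and plasma-like and other cells, for control mice 1, 2 and 4 (blue) and cKO mice 6, 7 and 8 (red), with bars at the group mean. In B and plasma-like cells no red point lies below a blue point in the 6 panels, but for Ly6c2 control mouse 2 and cKO mouse 7 nearly coincide. Ly6d and Ly6c1 are at 0 in T-like cells.

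Promoter windows of 250 bases before to 50 after the start site were found in RefSeq (GRCm38.p6) for 3 of the 6 called genes, B2m, Ly6c1 and Ly6c2. Ly6a, Ly6d and Ifi27l2a are named only. The windows are shown because these genes rose together, and they were searched on both strands for the core of the interferon-stimulated response element, which is GAAA, any 2 bases and GAAA, and for the gamma-activated site, TTCNNNGAA. Capitals mark the response element core.
B2m, chr2:122147437-122147736, plus strand: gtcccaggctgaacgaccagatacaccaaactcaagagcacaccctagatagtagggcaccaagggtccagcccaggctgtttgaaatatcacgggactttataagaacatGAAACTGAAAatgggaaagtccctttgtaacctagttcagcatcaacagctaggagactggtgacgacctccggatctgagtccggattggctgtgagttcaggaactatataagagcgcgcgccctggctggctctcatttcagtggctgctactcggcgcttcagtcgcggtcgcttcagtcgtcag
Ly6c2, chr15:75111922-75112221, minus strand: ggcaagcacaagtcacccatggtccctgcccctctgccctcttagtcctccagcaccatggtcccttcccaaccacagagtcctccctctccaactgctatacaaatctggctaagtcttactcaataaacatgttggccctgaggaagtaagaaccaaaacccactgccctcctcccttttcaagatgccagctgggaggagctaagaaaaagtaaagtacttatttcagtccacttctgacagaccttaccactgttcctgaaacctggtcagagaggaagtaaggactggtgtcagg
Ly6c1, chr15:75048788-75049087, minus strand: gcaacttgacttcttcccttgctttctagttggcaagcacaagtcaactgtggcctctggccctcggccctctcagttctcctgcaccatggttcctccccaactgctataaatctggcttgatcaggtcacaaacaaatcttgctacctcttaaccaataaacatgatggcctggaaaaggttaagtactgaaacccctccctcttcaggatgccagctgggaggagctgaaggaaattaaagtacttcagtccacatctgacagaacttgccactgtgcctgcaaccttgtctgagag
The B2m window held 1 response element core, starting at base 112, and no gamma-activated site. Neither motif was found in the 2 windows of Ly6c1 or the 2 of Ly6c2. Of all 32851 windows, 3.44% held the response element core and 8.30% the gamma-activated site, so a match is a description only.

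Of the 6 called genes, the 4 of the Ly6 family lie near each other. Ly6d, Ly6a, Ly6c1 and Ly6c2 are on chromosome 15 between 74762056 and 75111970 (GRCm38), within 349915 bases. This interval was drawn from the first to the last of these 4 called genes, so the share called in it is a description only. Of the 6 genes tested there, 4 were called, and the other two were Ly6e (log2 fold change 0.38, SE 0.27, edgeR adjusted p = 0.992) and Ly6i (1.11, SE 0.57, adjusted p = 0.899). B2m lies on chromosome 2 and Ifi27l2a on chromosome 12.

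Myeloid transcripts and the levels of the other cells are given beside these calls. All 14 monocyte and macrophage genes had UMIs in B and plasma-like cells, and their sum was 11104, 6859 and 2756 CPM in control mice 1, 2 and 4 and 9660, 5894 and 13630 CPM in cKO mice 6, 7 and 8, so the groups overlapped. This list includes Ly6c2, itself a called gene. For the 12 genes other than Ly6c2 and Ccr2, the median per cell was 28.0, 27.9 and 12.8 UMIs per 10000 in these control mice. In these cKO mice it was 14.7, 14.2 and 44.2, so the groups overlapped there too. In the other cells of these mice Ly6a stood at 103 to 116 CPM in control and 291 to 662 CPM in cKO mice, below the B and plasma-like cells. Ifi27l2a stood at 712 to 1139 CPM and 3659 to 4532 CPM in the other cells, above 5 of the 6 B and plasma-like sums, and the part of RNA from the other cells in its result was not tested. Ly6d stood at or under 6.31 CPM in the other cells of every fitted mouse. With the 6 B and plasma-like cells that carried 60 or more myeloid UMIs per 10000 left out (a setting added once the data had been examined), 7 genes were called, the same 6 and Hmgb2, which was lower (log2 fold change -3.21, edgeR adjusted p = 0.0447).

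In T-like cells no gene passed the test out of 2884 (0% called), and 170 genes had an unadjusted p under 0.05. DESeq2 called 0 as well. The sums held 33864, 40908 and 34272 UMIs in control and 11618, 22822 and 35891 UMIs in cKO mice, less than those of the B and plasma-like cells. Without control mouse 4 the histone gene Hist1h2ag and the tubulin gene Tuba1b were called lower, 2 in all, and without cKO mouse 6 only 1, the chemokine Cxcl2, higher. Without the filter on low counts 13 genes were called in T-like cells, in both directions. Among them were the cell cycle genes Pclaf (log2 fold change -5.02, edgeR adjusted p = 5.19e-05), Stmn1 (-3.55, adjusted p = 0.000285) and Rrm2 (-4.11, adjusted p = 0.0257), all lower in cKO mice. Cxcl2 (2.72, adjusted p = 4.40e-05), Il17f (6.53, adjusted p = 0.000509), Ccl1 (5.89, adjusted p = 0.0198) and Nkg7 (1.93, adjusted p = 0.0281) were higher, and the other called genes were lower. All 23 T-like UMIs of Il17f came from 1 cell, and Rrm2 had UMIs in 7 T-like cells. Such calls can therefore rest on few cells. The cell cycle genes were named after their values were seen. The summed level of 10 proliferation genes in T-like cells was 2540, 3569 and 2042 CPM in control mice 1, 2 and 4 and 430, 351 and 362 CPM in cKO mice 6, 7 and 8, with no overlap. The sum was also lower without overlap in B and plasma-like cells, at 281, 2416 and 358 CPM against 148, 116 and 136 CPM. In the other cells of the same mice it was 791, 1443 and 879 CPM against 719, 412 and 485 CPM, again without overlap. Hmgb2, a chromatin protein high in dividing cells, had the values nearest to a call among the list genes, at 827, 929 and 963 CPM in control and 258, 219 and 195 CPM in cKO mice (log2 fold change -2.07, SE 0.46, edgeR adjusted p = 0.123). The groups did not overlap. Pcna, the sliding clamp of DNA replication, stood at 295, 440 and 321 CPM against 0, 87.6 and 27.9 CPM (-2.98, SE 0.72, edgeR adjusted p = 0.123). All cKO sums lay below all control sums for 7.66% of the genes tested and above for 3.95%. Nkg7, a cytotoxic granule gene, stood at 266, 440 and 87.5 CPM against 430, 2892 and 279 CPM (2.1, SE 0.57, adjusted p = 0.216), with mouse 7 far above the rest. Gzmb stood at 1152, 1687 and 2188 CPM against 861, 5565 and 1114 CPM, and Foxp3 at 502, 122 and 292 CPM against 172, 175 and 111 CPM, with the groups overlapping for both.

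The genes that rose in plasma-like cells did not pass in T-like cells. Ly6a stood at 1034, 978 and 875 CPM in control and 1119, 2147 and 1115 CPM in cKO mice (log2 fold change 0.57, SE 0.34, edgeR adjusted p = 0.853). B2m stood at 8032, 7774 and 8695 CPM against 8349, 11305 and 8999 CPM (0.19, SE 0.30, adjusted p = 0.986). The cKO sums of Ly6a lay above the control sums, whereas those of B2m overlapped. Ly6c1 and Ly6d had no UMI in the 61 T-like cells, where 3 counts would be 4.92% of cells with a UMI. The difference between the classes was not tested.

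Of the 26 interferon response genes, 14 were tested in the lymphoid classes. In B and plasma-like cells 1 was called, Ifi27l2a, 13 of the 14 had a positive log2 fold change, and their median was 1.17 against -0.01 over all genes tested. All cKO sums lay above all control sums for 3 of them and below for 0. Isg15, a ubiquitin-like antiviral protein, stood at 12.2, 169 and 35.8 CPM in control and 98.4, 92.4 and 515 CPM in cKO mice (log2 fold change 1.96, SE 0.61, edgeR adjusted p = 0.248), and Irf7, the factor that amplifies type I interferon, had a log2 fold change of 3.50 (SE 0.89, adjusted p = 0.120). In T-like cells 0 were called, 9 of 14 had a positive value and the median was 0.66 against -0.07. Igtp, an interferon-induced GTPase, there had a log2 fold change of -1.73 (SE 0.68, edgeR adjusted p = 0.664). The summed level of the 26 genes was 3384, 4612 and 4092 CPM against 6928, 6518 and 12159 CPM in B and plasma-like cells and 4636, 3716 and 5077 CPM against 3959, 11349 and 4681 CPM in T-like cells, so the groups overlapped in T-like cells and not in B and plasma-like cells. In the other cells of the same mice the sum was 3003, 2860 and 4019 CPM against 9188, 12447 and 11267 CPM, also without overlap. When the change in the lymphoid cells was tested against that in the other cells, 0 of the 26 genes were called, 5 had a positive difference and the median was -0.44 against -0.09 over all genes tested.

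**Figure D5:**
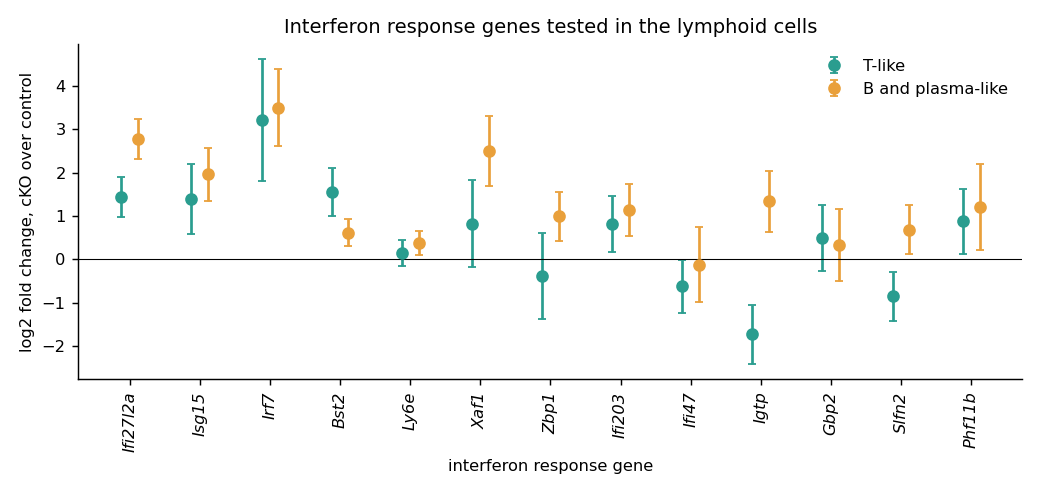
Log2 fold change of cKO over control, with its SE, for 13 of the 14 tested interferon response genes in T-like and B and plasma-like cells (n = 3 mice against 3). For B and plasma-like cells 12 of the 13 values are above 0 and Ifi27l2a alone passed the test, while in T-like cells Igtp, Slfn2, Ifi47 and Zbp1 are below 0.

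The secretory machinery of the plasma-like cells did not differ detectably. Of 20 genes of secretion and endoplasmic reticulum stress 0 were called in B and plasma-like cells, 13 had a positive log2 fold change, and the median was 0.03. Their sum was 26766, 30631 and 28277 CPM in control and 29052, 25332 and 31384 CPM in cKO mice. Jchain stood at 199269, 184882 and 293444 CPM against 237070, 227638 and 179102 CPM, and Xbp1 at 3213, 3616 and 2768 CPM against 3581, 4391 and 2426 CPM. Of 7 tested homing and chemokine receptors 0 were called, with a median of -0.44. Ccr10, the receptor that draws plasma cells to the colon wall, stood at 965, 1064 and 716 CPM in control and 381, 393 and 349 CPM in cKO mice (log2 fold change -1.16, SE 0.34, edgeR adjusted p = 0.191). The groups did not overlap, but the difference did not pass the test. Among B and plasma-like cells 0 of 3 amino acid transporter genes, 0 of 6 T cell effector genes, 0 of 11 immediate early genes, 0 of 5 death and survival genes and 0 of 2 proliferation genes were called, and the same lists held 0 calls in T-like cells. Hmgb2 in B and plasma-like cells had a log2 fold change of -2.53 (SE 0.61, adjusted p = 0.0633).

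With both classes summed per mouse, 6 of 2905 genes were called (0.207%), 5 higher and 1 lower. Of these, 5 were also called in B and plasma-like cells, namely Ly6a (log2 fold change 2.62, SE 0.25, edgeR adjusted p = 0.000188), Ifi27l2a, Ly6d, Ly6c1 and B2m. The gene that fell was Hmgb2, from 328, 569 and 354 CPM in control to 53.8, 75.7 and 98.2 CPM in cKO mice (-2.32, SE 0.37, adjusted p = 0.0148). Its call was lost without control mouse 2 (0.0876), cKO mouse 6 (0.108) or cKO mouse 7 (0.0560), and Ly6d lost its call without the same 3 mice (0.0946, 0.108 and 0.0560). Ly6c1 lost it without control mouse 1 (0.130), control mouse 4 (0.0899), cKO mouse 6 (0.135) or cKO mouse 8 (0.0684), and B2m without control mouse 1 (0.158), control mouse 2 (0.0946), cKO mouse 6 (0.157) or cKO mouse 7 (0.148). These sums mix the classes in shares that differed between mice, from 31.6 to 68.8% plasma-like cells in the mice fitted, and their part in the result was not tested. Without cKO mouse 6, 2 genes were called.

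Whether the lymphoid cells changed unlike the rest of the sort was tested as an interaction of class and group, with the same 3 and 3 mice. Of 11263 genes, 34 passed (0.302%), 9 with a higher and 25 with a lower difference in the lymphoid cells. The values below are means with SDs over 3 mice, control then cKO. Cd74, the invariant chain of MHC class II, went from 4214 ± 254 to 7267 ± 1159 CPM in the lymphoid cells and from 27863 ± 2292 to 17087 ± 2228 CPM in the other cells, a difference of 1.46 (SE 0.24, edgeR adjusted p = 3.54e-06). Almost all of the lymphoid Cd74 lay in plasma-like cells, at 5473, 7096 and 6133 CPM against 9770, 9777 and 10022 CPM. Tmem176a and Tmem176b, a gene pair of antigen presenting cells, differed by 1.71 (SE 0.29, edgeR adjusted p = 7.26e-06) and 1.63 (SE 0.29, adjusted p = 1.69e-05), the tetraspanin Cd81 by 1.5 (SE 0.33, adjusted p = 0.00434) and the protease inhibitor Spint2 by 2.03 (SE 0.50, adjusted p = 0.0217). By DESeq2 neither Tmem176a (0.356) nor Tmem176b (0.207) was called. Cd81 lost its call without control mouse 2 (adjusted p = 1) or cKO mouse 6 (0.0678) and by DESeq2. Spint2 lost it without control mouse 1 (0.0617), control mouse 2 (0.160), control mouse 4 (0.0989), cKO mouse 6 (0.249) or cKO mouse 8 (0.261) and by DESeq2 (0.207). For these 4 genes the lymphoid means were higher and the means of the other cells lower in cKO mice.

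Among the genes with a lower difference, Slpi, Ass1 and Ly6c2 had higher means in the other cells of cKO mice. Slpi, a secreted inhibitor of leukocyte proteases, went from 44.3 ± 42.0 to 636 ± 358 CPM in the other cells and from 2484 ± 1614 to 3791 ± 512 CPM in the lymphoid cells, a difference of -3.40 (SE 0.30, edgeR adjusted p = 2.56e-26). It lay in plasma-like cells, at 6071, 2027 and 2828 CPM in control and 4270, 6587 and 5109 CPM in cKO mice, and had 2 UMIs in the T-like cells. Over the alternative fits with no mouse left out (edgeR or DESeq2), the adjusted p of Slpi reached 0.00480, so the size of the p-value depends on the fit. The difference itself lay between -3.57 and -3.37 in these fits. Ass1, the argininosuccinate synthase, differed by -3.16 (SE 0.47), with 146 ± 59.4 and 72.6 ± 31.6 CPM in the lymphoid and 76.0 ± 41.8 and 304 ± 92.2 CPM in the other cells, and Gm5424, which resembles Ass1 and may share its reads, by -3.27 (SE 0.46). Gbp6, an interferon-induced GTPase, differed by -4.79 (SE 0.77), and in T-like cells it stood at 325, 244 and 204 CPM against 86.1, 87.6 and 55.7 CPM. Capg differed by -1.94 (SE 0.31). Pooled over the mice, Capg stood at 1430 CPM in T-like and 350 CPM in B and plasma-like cells, and Ass1 at 222 and 58.0 CPM. The lymphoid sums mix the classes in shares that differed between mice, and the part of this mix in the differences was not tested. Ly6c2 differed by -1.24 (SE 0.29, adjusted p = 0.0103), with 170 ± 64.6 and 1534 ± 527 CPM in the other cells and 1357 ± 911 and 4921 ± 2160 CPM in the lymphoid cells. Ly6a (0.35, SE 0.29), Ifi27l2a (-0.03, SE 0.28) and B2m (0.15, SE 0.25) did not pass, each with an edgeR adjusted p of 1. Without control mouse 1, control mouse 2 or cKO mouse 6 the counts were 20, 12 and 22, and DESeq2 called 6, all among the 34.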

How the data were processed

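Single-cell RNA sequencing was done on sorted colonic cells of 4 control and 4 cKO mice. The authors used Cell Ranger 2.1.0 with STAR 2.5.3a on mm10 (Ensembl release 84) plus EYFP. They deposited a single table of raw counts, the UMIs of each gene in each barcode, whose column endings name the wells. Cells with at least 631 UMIs and 399 genes, at most 5% mitochondrial UMIs and no hemoglobin UMI were kept (3213 of 5947). The members, gene lists and tests were chosen with earlier results of these data known. UMIs were summed per mouse and class from 5 cells, and genes with over 1 CPM in at least 3 sums and a UMI in at least 20 cells were tested with edgeR 4.0.16 (TMM, R 4.3.3), T-like and B and plasma-like sums in a joint fit, and the interaction with each mouse as a block. The named genes are the rule and marker genes, the 10 leading genes per class, up to 5 calls per direction and comparison, and list genes. Shares were tested by exact permutation and within-mouse levels by exact sign flips (scipy 1.17.1), with a pseudocount of 10 CPM. Doublets were called with Scrublet (scanpy 1.11.5). The fits were tested on simulated data. DESeq2 1.42.0, other filters and left-out mice are alternatives. Positions are from GENCODE vM21. Depth was 184612 UMIs in T-like and 430877 UMIs in B and plasma-like cells. Intervals and floors (3 counts) cover counting error only. A few list genes are not reported here.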

Additional observations from a re-analysis of the deposited data

Results flagged for a closer look

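In 10 genes the cKO minus control difference of the lymphoid cells differed from that of the other cells by a test of the interaction itself (edgeR, log2 scale). It was higher in the lymphoid cells for Cd74 by 1.46, Tmem176a by 1.71, Tmem176b by 1.63, Cd81 by 1.5 and Spint2 by 2.03. It was lower for Slpi with a difference of -3.40, Gm5424 with -3.27, Ass1 with -3.16, Gbp6 with -4.79 and Capg with -1.94. Cd81 lost its call in 3 (by DESeq2 and without control mouse 2 or cKO mouse 6), Spint2 in 6 (by DESeq2 and without any of the 6 mice but cKO mouse 7), and Gm5424, Tmem176a and Tmem176b each in 1 (DESeq2) of the 12 alternative fits, and the call of the others held in all 12.

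Among the 2734 barcodes that did not pass the cell filters and entered no comparison, 4 met the T-like rule and 11 the B and plasma-like rule, so the filters also removed lymphoid barcodes.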

How the results depend on the processing

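The 3 shares stayed on the same side of the threshold under all alternatives. Leaving out a mouse gave differences of -0.870 to 0.129 percentage points for T-like cells, 0.555 to 1.44 for B and plasma-like cells and 13.5 to 35.1 for their mix. Only the removal of cKO mouse 5 turned a sign. With Scrublet doublets left out, the B and plasma-like difference was 0.144 and that of the mix 13.5 percentage points. Without a filter on low counts the calls were 13 in T-like cells, 14 in B and plasma-like cells and 40 in their sum. DESeq2 called 6 genes in the interaction. In B and plasma-like cells 2 genes were called with sums from at least 10 cells, where cKO mouse 6 is alone, and 13 with sums from at least 3 cells, where mouse 5 adds only doublet calls. Without the myeloid-rich members 10 genes were called in the sum of both classes. Leaving out a mouse gave 0 to 2 calls in T-like cells, 3 to 8 in B and plasma-like cells, 2 to 6 in their sum and 12 to 50 in the interaction. Fewer mice and fewer genes enter such fits, and the cause was not tested otherwise. Of the 16 within-mouse levels, 12 had every mouse on the same side, and 12 or 13 under each alternative. Ccr2 in T-like cells turned sign without control mouse 2 (-0.0745 to 0.200 over the left-out mice). Slc7a5 in B and plasma-like cells (0.116) turned to -0.627 with a pseudocount of 1 CPM, and without control mouse 1, control mouse 2 or cKO mouse 6 (-0.0817 to 0.319 over the left-out mice). With 5 mice a sign-flip test cannot go below 0.0625, so those p-values say nothing of stability. No paired analysis was possible because the groups share no replicate numbers. Depth limits the T-like sums most, at 11618 UMIs in cKO mouse 6.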
